A study of Mus musculus with 14 samples.

Results

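Dppa5a and 6 genes grouped with it, Khdc3, Ooep, Tle6, Nlrp5, Padi6 and Khdc1a, were followed through every library of the series. They were chosen with earlier results of these data known and were matched by gene symbol. All 7 symbols were present among 24345 symbols in the RNA-seq tables and among 24394 in the tables of RNA immunoprecipitation (RIP), each at 1 locus. The 14 mouse libraries formed 7 groups of 2. RNA-seq covered stem cells with Dppa5a knocked down (Dppa5a_KD), their control (KD_control, labelled wild type), untreated wild type embryonic stem cells (mESC) and embryonic fibroblasts (MEF). The stem cells were a home-made line maintained with leukemia inhibitory factor on inactivated feeder fibroblasts and passaged on gelatin before harvest. RIP was made from stem cells overexpressing 3Flag-Dppa5a, which the IgG controls carried too: with the antibody Flag on cells whose treatment is given as HU (HU_Flag_RIP) or as untreated (Flag_RIP), and with IgG on untreated cells (IgG_RIP). The labels do not explain HU or the knockdown method, nor say that replicates were separate cultures. Every p-value is therefore set by the scatter of these particular samples, possibly technical scatter.

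Dppa5a, Khdc3 (also called Filia), Ooep (Floped) and the Khdc1 genes belong to a small mammalian family of proteins built on an atypical KH domain, a fold that in other proteins binds RNA. In mouse oocytes and early embryos Ooep, Nlrp5 (Mater), Tle6, Khdc3 and Padi6 are components of, or are tied to, the subcortical maternal complex and the cytoplasmic lattices, and loss of Nlrp5, Ooep, Tle6 or Padi6 in the mother halts her embryos at cleavage. Dppa5a is in contrast a marker of pluripotent cells and germ cells, and Khdc3 has also been studied in mouse stem cells for its part in genome stability.

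In the deposited mm10 coordinates Dppa5a lay on chromosome 9 from 78367054 to 78368199, and Ooep followed it at 78376903 to 78378588, with 8703 bases between them. Khdc3 lay on the same chromosome at 73102398 to 73104443, 5262610 bases before Dppa5a. Tle6 was on chromosome 10 (81590905 to 81600900), Nlrp5 on chromosome 7 (23385889 to 23441923), Padi6 on chromosome 4 (140727355 to 140742643) and Khdc1a on chromosome 1 (21349677 to 21352199). The annotation lists all 7 as protein-coding.

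The promoters of Ooep, Khdc3 and Tle6 are shown, from RefSeq's table for build GRCm38.p6, because these are the detected members with an entry and their levels moved differently between the stem cell groups. The table matched 5 of the 7 genes in 7 windows, and Dppa5a and Khdc1a had no entry. Each window runs from 250 bases before to 50 bases after the annotated start, 5′ to 3′ on the gene's strand, and capitals mark matches on either strand to 2 motifs, the GC box (GGGCGG) and the CCAAT box (CCAAT).
Ooep (chr9:78378539-78378838, minus strand): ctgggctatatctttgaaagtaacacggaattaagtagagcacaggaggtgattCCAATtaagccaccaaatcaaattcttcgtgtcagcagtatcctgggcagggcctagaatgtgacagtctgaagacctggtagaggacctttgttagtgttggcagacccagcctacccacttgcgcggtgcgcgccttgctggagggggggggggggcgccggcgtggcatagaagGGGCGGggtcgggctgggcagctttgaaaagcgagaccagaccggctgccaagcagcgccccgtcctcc
Khdc3 (chr9:73102148-73102447, plus strand): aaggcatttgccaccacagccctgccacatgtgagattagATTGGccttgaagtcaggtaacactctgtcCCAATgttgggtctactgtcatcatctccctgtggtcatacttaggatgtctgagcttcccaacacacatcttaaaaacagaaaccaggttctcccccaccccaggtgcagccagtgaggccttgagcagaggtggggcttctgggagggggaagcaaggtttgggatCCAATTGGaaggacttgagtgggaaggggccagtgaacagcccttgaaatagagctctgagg
Tle6 (chr10:81600851-81601150, minus strand, the upstream of 2 windows): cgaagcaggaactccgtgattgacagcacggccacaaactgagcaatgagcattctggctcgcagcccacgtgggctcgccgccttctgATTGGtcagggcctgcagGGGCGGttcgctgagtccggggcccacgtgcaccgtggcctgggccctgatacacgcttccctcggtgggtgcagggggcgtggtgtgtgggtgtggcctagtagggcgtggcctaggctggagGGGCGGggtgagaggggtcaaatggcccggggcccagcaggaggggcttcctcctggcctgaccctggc
The Ooep window had 58.3% G and C and 15 CpG dinucleotides, and the Tle6 window had 68% and 18. The Khdc3 window had 52.7% G and C, the median of all 32851 windows, and 0 CpG. A GC box began 19 bases before the start in both Ooep and Tle6, and Tle6 had another at 143 bases before it. Khdc3 had no such match, but 4 CCAAT boxes, of which the pair at 12 and 9 bases before the start overlap on opposite strands. A GC box stood in 35.7% of all windows and a CCAAT box in 37.4%. The same 3 windows held no match to the octamer, TATA box, SOX core or ESRRB motif letters, which stood in 1.74%, 13.6%, 12.6% and 0.423% of all windows. The downstream Tle6 window held no match to any of the 6 motifs. These are matches of letters, and no binding was measured.

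The libraries matched their labels in cell type. The summed level of 8 pluripotency markers was 3155 to 4144 FPKM in Dppa5a_KD, 3639 to 3685 in KD_control, 2167 to 3091 in mESC and 17.7 to 23.4 in MEF. The summed level of 8 fibroblast markers was 6.41 to 6.51, 16.0 to 16.8, 2.18 to 5.92 and 4966 to 5857 FPKM in the same order of groups. Oocyte markers, which would accompany the maternal genes in germ cells, summed to 4.23 to 5.29 FPKM in Dppa5a_KD, 5.43 to 5.45 in KD_control, 2.52 to 4.24 in mESC and 0.0874 to 0.205 in MEF, and 1 to 4 of the 8 were listed at 0 in each stem cell library. FPKM, the deposited unit, scales fragments by transcript length and library depth, so it can be compared between genes. In bulk samples, fewer cells that express a gene and less RNA per cell cannot be told apart.

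Among the 7 genes 4 were expressed in stem cells, at levels far apart, and the other 3 were barely detected. Dppa5a stood highest. It ranked 758 and 235 of 24345 genes by FPKM in the Dppa5a_KD libraries, 3 in both KD_control libraries, and 35 and 42 in the mESC libraries. Ooep reached at most 137 FPKM, Khdc3 77.1 and Tle6 23.2, and no other member reached 1 FPKM in any library.

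Nlrp5, a founding component of the maternal complex, was at 0.0105 and 0 FPKM in Dppa5a_KD, 0.164 and 0.0686 in KD_control, 0.0528 and 0.00281 in mESC, and 0.0189 and 0 in MEF. The highest of these corresponds to about 15.1 effective fragments. A row named Nlrp5-ps, chosen after its values were seen, was listed at 0.556 and 0.705 FPKM in Dppa5a_KD, 0.473 and 0.733 in KD_control, 0.243 and 0.373 in mESC, and 0.0354 and 0.0813 in MEF, and reads could be split between such copies. Padi6, a peptidylarginine deiminase of oocytes, was at 0.0154 and 0.0150 FPKM in Dppa5a_KD (1 effective fragment each), 0.217 and 0.188 in KD_control (17.0 and 14.7), 0 and 0.0622 in mESC, and 0 in both MEF libraries. Padi6 was below the filter and was not tested. Khdc1a was listed at 0 in 7 of 8 libraries and at 0.0153 FPKM in mESC replicate 2, again 1 effective fragment.

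**Figure D1:**
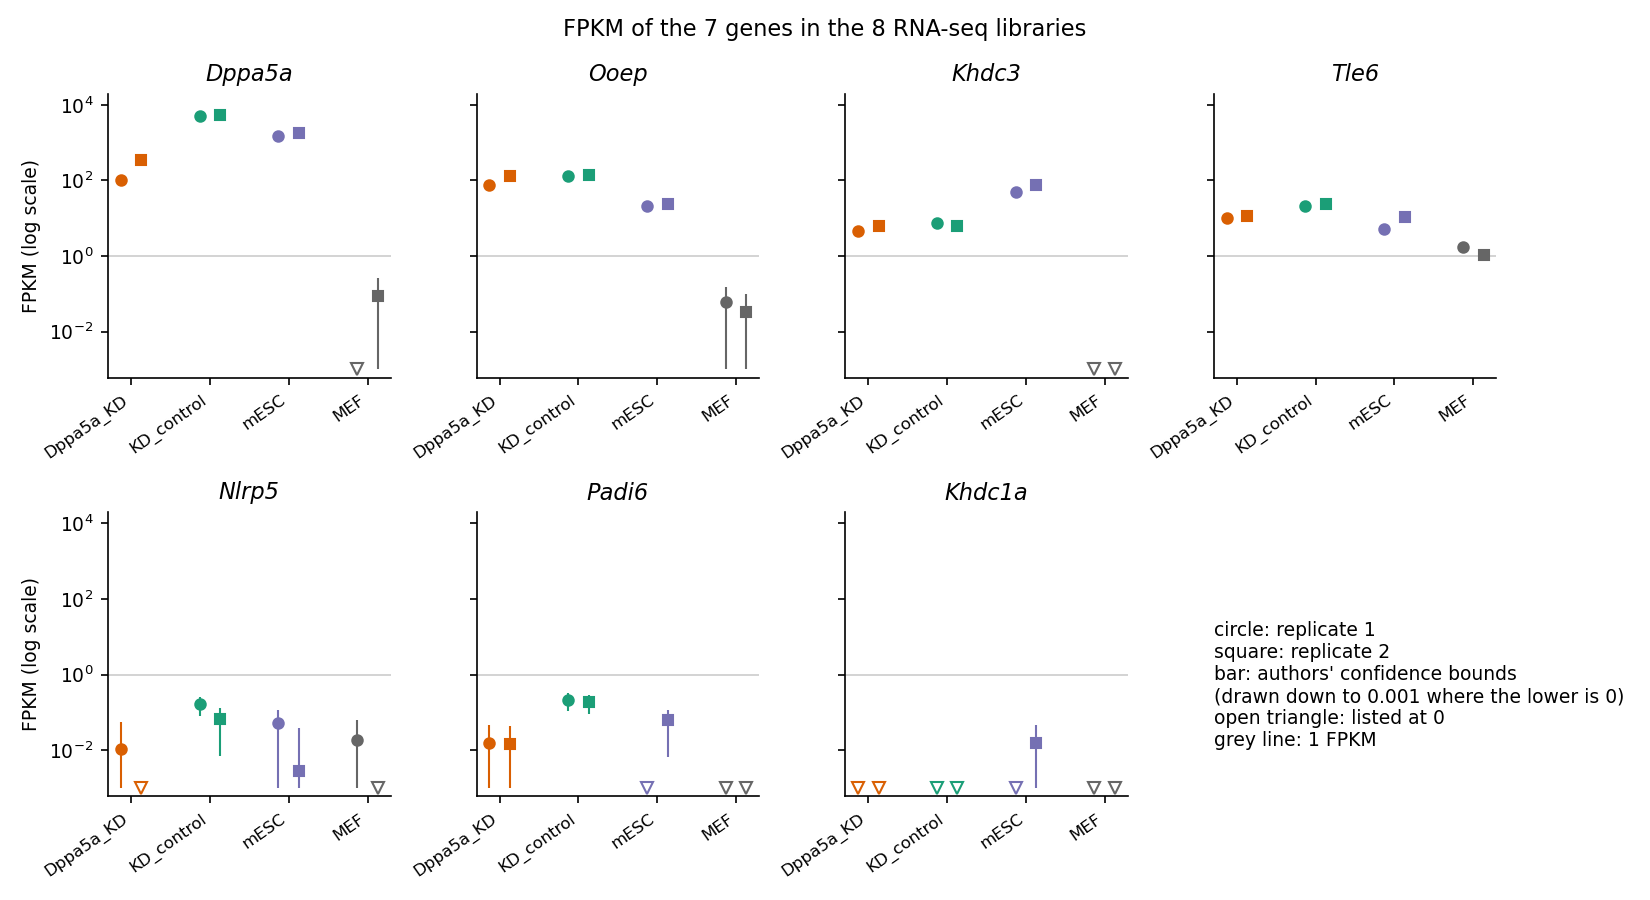
FPKM on a log scale for the 7 genes in the 8 RNA-seq libraries, with the authors' confidence bounds as bars and open triangles for values listed at 0. Dppa5a, Ooep, Khdc3 and Tle6 lie above 1 FPKM in all 6 stem cell libraries, and only Tle6 does in MEF.

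Against fibroblasts, all 4 testable members were higher in stem cells, as were 30.6% of all 12875 genes tested. Dppa5a, Khdc3 and Ooep passed the filter of 1 FPKM only through mESC, so a call of theirs could only be higher. Dppa5a had 1485 and 1818 FPKM in mESC, against 0 and 0.0871 FPKM in MEF, the value above 0 resting on 1 effective fragment. Khdc3 had 50.6 and 77.1 FPKM in mESC and was listed at 0 in both MEF libraries. Ooep had 20.7 and 24.4 FPKM in mESC, against 0.0626 and 0.0325 FPKM in MEF, which is about 1.99 and 1 effective fragments. Tle6, a relative of the Groucho co-repressors, was the exception in being measurable in fibroblasts: it had 5.09 and 10.6 FPKM in mESC, against 1.70 and 1.06 FPKM in MEF.

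All fold changes of FPKM below are differences of log2(FPKM + 1), so they understate the change of low genes. These differences in mESC against MEF were 10.62 for Dppa5a (SE 0.22), 5.99 for Khdc3 (SE 0.26), 4.49 for Ooep (SE 0.19) and 1.83 for Tle6 (SE 0.35). The limma adjusted p-values were 5.2e-05, 8.9e-05, 8.3e-05 and 0.0081. The first 3 values depend on the pseudocount, since MEF was at or near 0. Over all genes 56.7% were called at an adjusted p under 0.05 (26.1% lower), so a call alone is common in this comparison. The Tle6 call ended without MEF replicate 1 (2.03, adjusted p = 0.089) and without MEF replicate 2 (1.64, adjusted p = 0.13). With 1 library left in a group, that library is assumed to vary like the others.

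Related lists differed in how many genes were called. Of 11 genes of the maternal complex and its relatives 5 were tested, 4 were higher in mESC and 1 was lower, with a median of 2.86 against 0.15 over all genes. Of those higher, Khdc3, Ooep and Nlrp4f passed the filter only through mESC, so their call could only be higher. Nlrp4f, an NLRP gene of the oocyte complex, had 3.99 to 9.68 FPKM in mESC, against 0 to 0.0182 in MEF (log2 fold change 2.86, SE 0.37). Zbed3, a partner of the complex, went the other way with 11.1 to 12.5 FPKM in mESC, against 25.4 to 25.8 in MEF (-1.06, SE 0.20). Of 5 genes that share the Dppa name, which stands for developmental pluripotency associated and not for a protein family, 4 were tested and 4 were higher in mESC. All 4 passed the filter of 1 FPKM only through mESC, so a call could only be higher. Dppa2 and Dppa4, a pair of SAP-domain chromatin proteins, had log2 fold changes of 6.57 (SE 0.21) and 6.60 (SE 0.19). In the Groucho family 2 of 6 genes were higher, 1 lower and 3 not called: Tle4 had 32.8 to 38.9 FPKM in mESC, against 2.07 to 2.44 in MEF (3.50, SE 0.21), and Tle2 was lower (-1.71, SE 0.22). Tle2 passed the filter only through MEF, so its call could only be lower. Of 35 other KH-domain RNA-binding proteins 33 were tested, with 9 higher, 4 lower and 20 not called. Over all genes tested 30.6% were higher and 26.1% lower. Igf2bp1, an mRNA-binding protein of fetal tissues, was higher (2.27, SE 0.27), and Bicc1 was lower, at 0.873 to 1.29 FPKM in mESC against 24.2 to 29.5 in MEF. The calls of Nlrp4f and Zbed3 ended without either MEF library (limma adjusted p = 0.054 to 0.12), and that of Igf2bp1 without MEF replicate 2 (0.051).

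When Dppa5a was knocked down, Dppa5a and Tle6 fell, while Ooep, the gene next to Dppa5a, and Khdc3 did not pass the test. Dppa5a had 101 and 358 FPKM in the knockdown, against 5126 and 5417 FPKM in KD_control. The knockdown libraries retained 1.92% and 6.79% of the control mean and differed 3.54-fold from each other. The log2 fold change was -4.78 (SE 0.63, limma adjusted p = 0.0088). Even the lower of these libraries stood far above MEF. Markers of other cell types also differed in the knockdown, where 13.6% of all genes tested were higher and 23.8% lower. Trophectoderm markers, 6 in all, summed to 33.4 to 36.0 FPKM in the knockdown, against 56.2 to 58.5 in KD_control, with 1 higher and 3 lower of 4 tested. Primitive endoderm markers, also 6, summed to 20.7 to 29.2 FPKM in the knockdown, against 31.6 to 32.7 in KD_control, with 3 lower of 4 tested. Of these, Gata4 and Pdgfra passed the filter of 1 FPKM only through KD_control, so their call could only be lower. Of the fibroblast markers, whose sums are given above, 2 were tested and 2 were lower. The part of these markers in the members' knockdown values was not tested.

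Tle6 had 10.1 and 11.4 FPKM in the knockdown, against 20.9 and 23.2 FPKM in KD_control. The knockdown libraries agree within 1.12-fold and lie at 45.9% and 51.5% of the control mean. Its log2 fold change was -0.97 (SE 0.12, limma adjusted p = 0.0075). It stayed called in every alternative run, with adjusted p-values up to 0.049. Of all 12345 genes tested, 37.4% were called (13.6% higher, 23.8% lower), so 2 lower of 4 members tested is to be read against that share.

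Ooep had 77.1 and 134 FPKM in the knockdown, against 135 and 137 FPKM in KD_control. Only knockdown replicate 1, the library with the least Dppa5a, stood apart, at 56.7% of the control mean, while replicate 2 stood at 98.5%. The log2 fold change was -0.42, with a 95% interval of -1.14 to 0.31 (limma adjusted p = 0.29). It was -0.81 without knockdown replicate 2 and -0.02 without replicate 1, each resting on 1 knockdown library. Khdc3 had 4.62 and 6.07 FPKM in the knockdown, against 7.68 and 6.42 FPKM in KD_control. Its log2 fold change was -0.35, with a 95% interval of -0.77 to 0.08 (limma adjusted p = 0.15), and -0.51 without knockdown replicate 2. The FPKM of all genes summed to 452710 in knockdown replicate 1, against 585709 in replicate 2, and with FPKM rescaled to a common sum the log2 fold changes were -0.27 for Ooep (adjusted p = 0.30) and -0.22 for Khdc3 (adjusted p = 0.41). The ratio of Ooep to Dppa5a within a library was 0.762 and 0.374 in the knockdown, against 0.0263 and 0.0252 in KD_control. The denominator of this ratio is the gene knocked down, so its rise was set by the design, and Ooep itself did not rise.

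**Figure D2:**
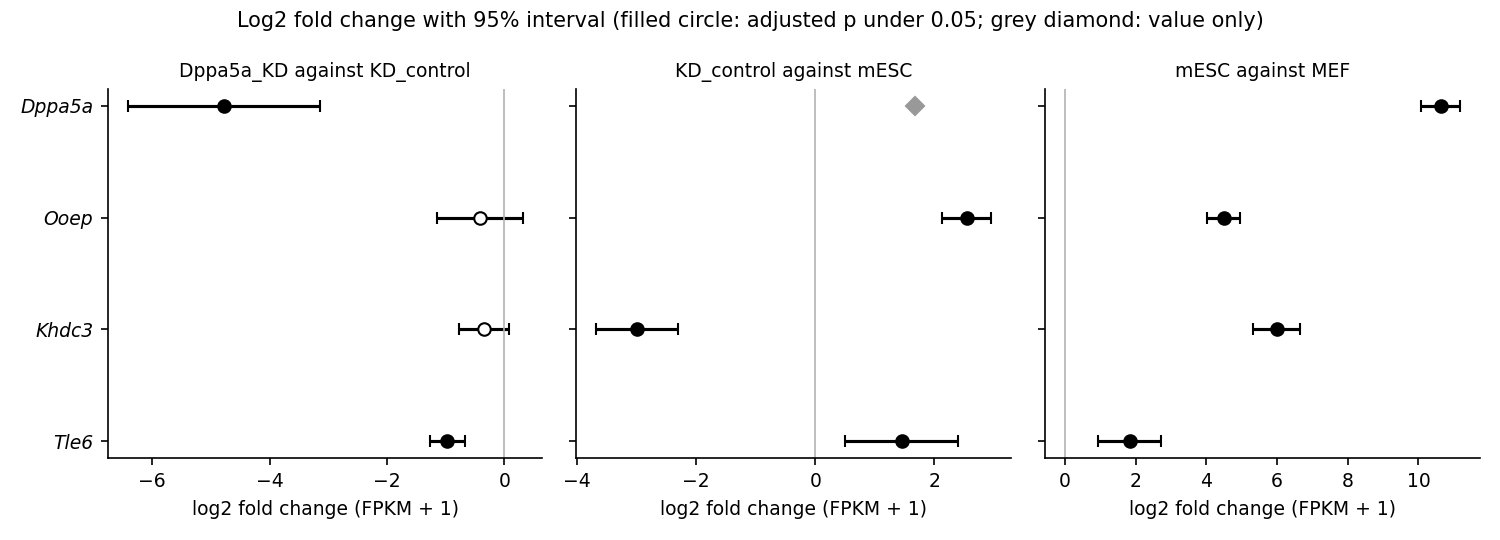
Log2 fold change of FPKM + 1 with its 95% interval for the 4 testable members in 3 comparisons, filled where the limma adjusted p was under 0.05, and a grey diamond without interval for Dppa5a in KD_control against mESC, whose value is a description. In the knockdown the intervals of Ooep and Khdc3 cross 0 and those of Dppa5a and Tle6 do not.

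Relatives of these genes were called in both directions in the knockdown, to be read against 13.6% higher and 23.8% lower over all genes tested. In the list of the maternal complex and its relatives 6 of 11 genes were tested, 1 rose and 2 fell, with a median of -0.38 against -0.11 over all genes. Nlrp4f rose, with 19.7 to 23.3 FPKM in the knockdown against 12.6 to 13.1 in KD_control (0.69, SE 0.12), and Nlrp9b fell, with 0.351 to 0.633 against 1.02 to 1.21 FPKM (-0.51, SE 0.14). Among the Dppa-named genes Dppa2 rose (0.78, SE 0.11), with 106 to 114 FPKM against 62.0 to 65.3. Dppa3 (Stella), a maternal factor that protects DNA methylation in the zygote, fell to 0.113 to 0.116 FPKM in the knockdown, against 2.55 to 2.74 in KD_control (-1.71, SE 0.10). Dppa4 did not pass (-0.06, SE 0.21). In the Groucho family Tle4 rose while Tle6 fell: Tle4 had 26.6 to 32.3 FPKM in the knockdown, against 12.9 to 14.7 in KD_control (1.04, SE 0.14). Of the 3 deiminase genes tested 2 fell, Padi2 (-1.06, SE 0.10) and Padi3 (-0.52, SE 0.11). Of 31 other KH-domain proteins tested 4 rose and 5 fell, with a median of 0.10. Those that fell included Pcbp3, a poly(C)-binding protein (-0.96, SE 0.12), Tdrkh, a Tudor and KH protein of the piRNA pathway (-0.84, SE 0.14), and Fxr2, a paralogue of the fragile X protein (-0.85, SE 0.15). Nlrp9b, Dppa3, Padi3 and Tdrkh passed the filter of 1 FPKM only through KD_control, so their call could only be lower. The calls of Nlrp4f, Dppa2, Padi3 and Fxr2 ended without either KD_control library (limma adjusted p = 0.053 to 0.16), and that of Nlrp9b without KD_control replicate 1 or knockdown replicate 1 (0.14 and 0.055).

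The control stem cells themselves differed from the mESC libraries: Ooep and Tle6 were higher in KD_control and Khdc3 was lower, where 41.4% of all 12595 genes tested differed. Both groups are labelled wild type stem cells, and this comparison was added because earlier results had shown that their Dppa5a levels differ, so its Dppa5a value is a description. Dppa5a had 5126 and 5417 FPKM in KD_control, against 1485 and 1818 FPKM in mESC. Ooep had 135 and 137 FPKM in KD_control, against 20.7 and 24.4 FPKM in mESC, a log2 fold change of 2.54 (SE 0.15, limma adjusted p = 0.0071). Tle6 had 20.9 and 23.2 FPKM in KD_control, against 5.09 and 10.6 FPKM in mESC (1.45, SE 0.35, limma adjusted p = 0.035).

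Khdc3 went the other way. It had 7.68 and 6.42 FPKM in KD_control, against 50.6 and 77.1 FPKM in mESC, a log2 fold change of -2.98 (SE 0.25, limma adjusted p = 0.0074), and the libraries of the groups were far apart. The order of Khdc3 and Ooep was therefore not the same in the stem cell groups. The ratio of Khdc3 to Ooep was 0.0600 and 0.0453 in Dppa5a_KD, 0.0569 and 0.0470 in KD_control, and 2.44 and 3.16 in mESC. The ratio in the knockdown libraries thus lay close to that of their own control. Over all genes 26.5% were higher and 15% lower, against 2 higher and 1 lower of the 3 members other than Dppa5a. The Tle6 call ended without either KD_control library (adjusted p = 0.053 and 0.094) and with no filter on low FPKM (0.061).

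**Figure D3:**
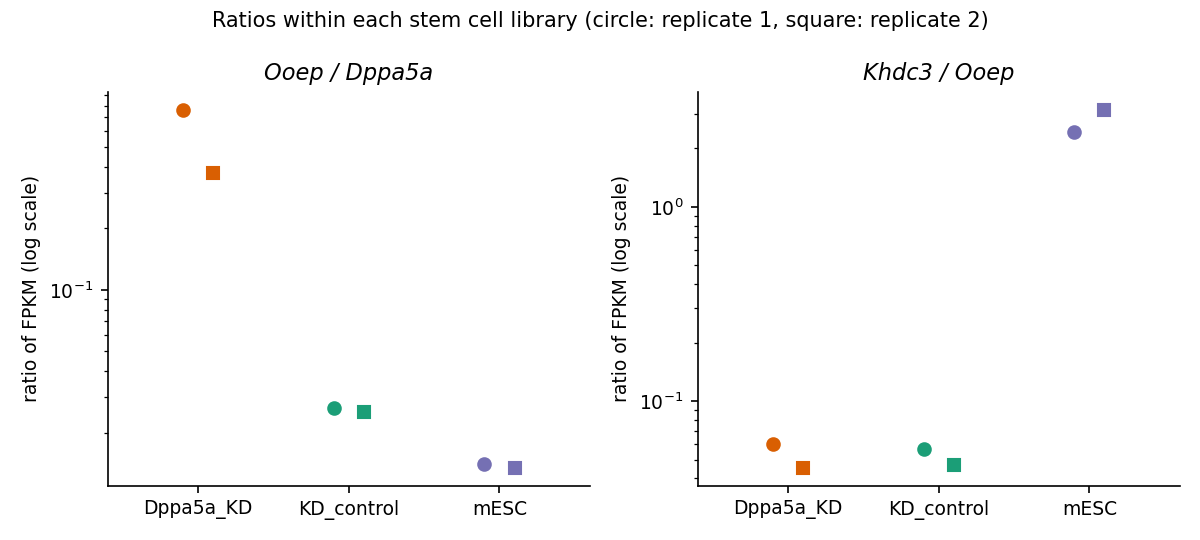
Ratio of FPKM within each stem cell library, on a log scale, for Ooep to Dppa5a and for Khdc3 to Ooep. The first ratio is highest in the knockdown libraries (0.762 and 0.374), where its denominator, Dppa5a, was knocked down. The second is above 1 only in mESC (2.44 and 3.16).

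Genes of the related lists were also called between these wild type groups, to be read against 26.5% higher and 15% lower over all genes tested. Culture, passage and sequencing run cannot be told apart from the group. Tle4 was lower in KD_control (-1.31, SE 0.16) where Tle6 was higher. Of 32 other KH-domain proteins tested 4 were higher and 10 lower, among them Igf2bp3 with 7.33 to 7.57 FPKM in KD_control against 32.4 to 41.7 in mESC (-2.16, SE 0.18) and Pno1, a ribosome assembly factor (-1.45, SE 0.18). Pcbp3 was higher (1.27, SE 0.16). The calls of Tle4 and Pcbp3 ended without either KD_control library (limma adjusted p = 0.051 to 0.096), and that of Pno1 without KD_control replicate 2 (0.057). Primitive endoderm markers summed to 31.6 to 32.7 FPKM in KD_control, against 87.5 to 121 in mESC, with 0 higher and 5 lower of 6 tested. Of these, Dab2 and Sox17 passed the filter only through mESC, so their call could only be lower. Two-cell-like markers summed to 16.3 to 17.3, against 46.0 in mESC replicate 1 and 17.3 in replicate 2. Of 6 tested, 2 were higher and 0 lower, with a median log2 fold change of -0.50. Those called, Tcstv1 and Usp17lc, passed the filter of 1 FPKM only through KD_control, so a call could only be higher. Zscan4c, Zscan4d and Zscan4f lay at -1.14, -1.02 and -1.15 and were not called. Trophectoderm markers summed to 56.2 to 58.5, against 20.5 to 52.6, with 1 higher and 0 lower of 4 tested. Of the fibroblast markers, whose sums are given above, 2 were tested and 1 was higher, Pdgfrb, which passed the filter only through KD_control. The part of these markers in the members' values was not tested. The knockdown comparison and this one share the KD_control libraries.

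In the chromosome 9 neighbourhood of Dppa5a and Ooep some genes were called and others were not. Besides this pair, 14 genes had a locus within 200 kb, and most genes between Gsta4 and Dppa5a were at or near 0: Gsta1, Gsta2, Omt2a and Omt2b stayed at 0 to 0.532 FPKM in every library. The calls here are to be read against the shares over all genes tested. These were 13.6% higher and 23.8% lower in the knockdown, and 26.5% higher and 15% lower in KD_control against mESC. In the knockdown 7 neighbours were tested and 3 fell. Ddx43, a KH-domain RNA helicase on the far side of Ooep, had 0.966 to 1.05 FPKM in the knockdown, against 1.81 to 2.07 in KD_control (-0.55, SE 0.11). The lysosomal sialic acid transporter Slc17a5 fell by 0.86 (SE 0.11) and C920006O11Rik by 0.88 (SE 0.10). In the knockdown C920006O11Rik passed the filter of 1 FPKM only through KD_control, so its call could only be lower. In KD_control against mESC, where Dppa5a and Ooep both stood higher, 8 neighbours were tested, 3 were higher and 1 was lower. Those higher were Slc17a5 (0.94, SE 0.15), the glutathione transferase Gsta4 (0.81, SE 0.23, limma adjusted p = 0.04997) and C920006O11Rik (0.52, SE 0.14, adjusted p = 0.043), and Ddx43 was lower (-0.68, SE 0.14). Around Khdc3 9 genes had a locus within 200 kb and all 9 were tested. In the knockdown 1 of them rose, Rsl24d1, a ribosome assembly gene that lies next to Khdc3 (0.48, SE 0.10), and 5 fell. Of those that fell, Pygo1 passed the filter only through KD_control. In KD_control against mESC, where Khdc3 was lower, 3 of the 9 were higher and 1 was lower, Rsl24d1 (-0.97, SE 0.13). Without either KD_control library the calls of Ddx43 ended in both comparisons (limma adjusted p = 0.057 and 0.15 in the knockdown, 0.26 and 0.37 in KD_control against mESC), as did those of Rsl24d1 in the knockdown and of Slc17a5, Gsta4 and C920006O11Rik in KD_control against mESC (0.31 to 0.39 for the last 2). The Gsta4 and C920006O11Rik calls also ended with a pseudocount of 0.1 (0.053 and 0.058) and with no filter on low FPKM (0.074 and 0.061).

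**Figure D4:**
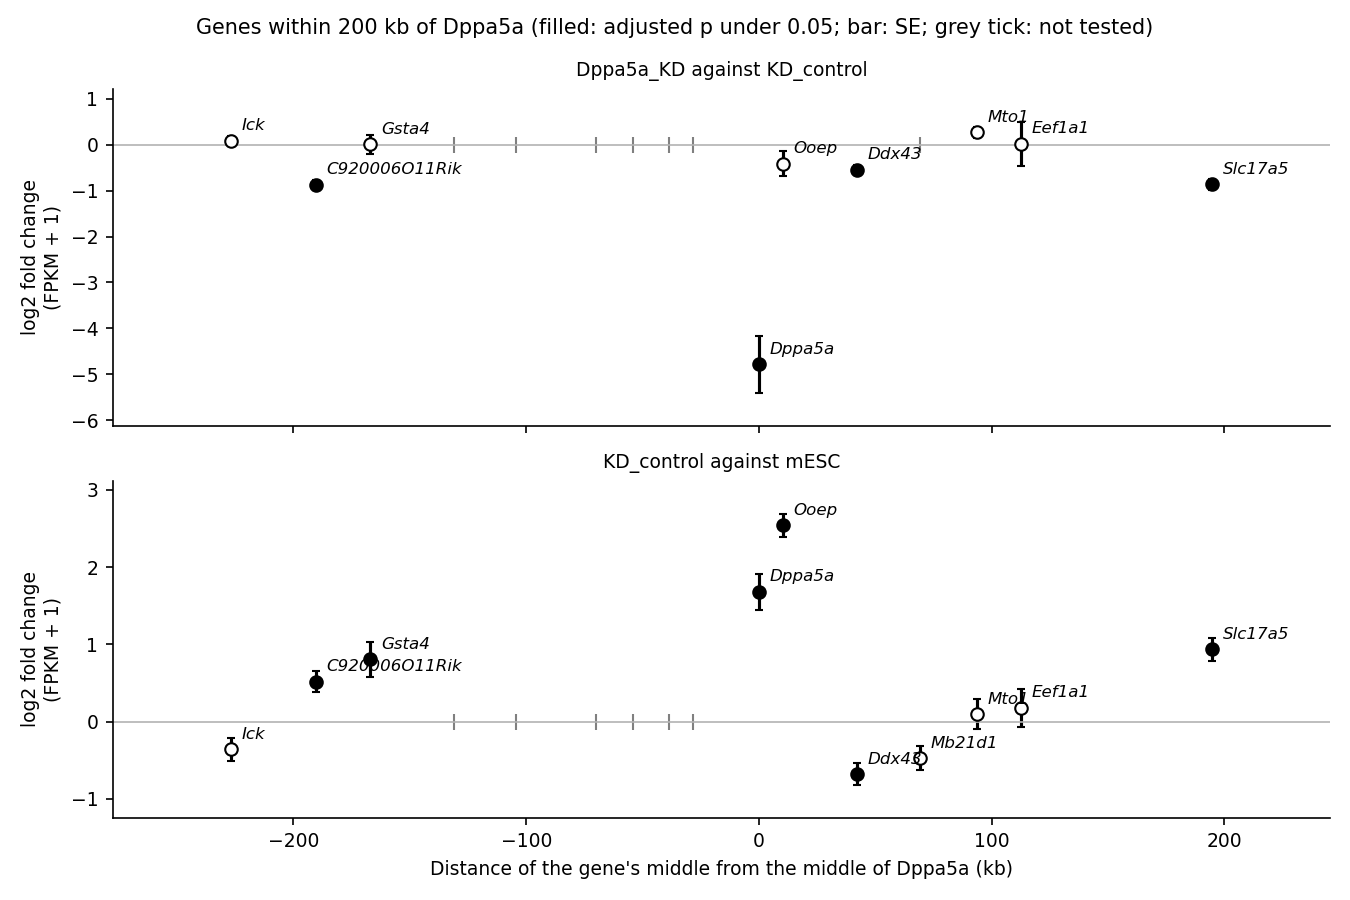
Log2 fold change of FPKM + 1 with SE against distance from Dppa5a in kb, for genes within 200 kb, in the knockdown (top) and in KD_control against mESC (bottom). Dppa5a stands alone near -4.78 in the top panel, and Ooep and Dppa5a are the highest points of the bottom panel. The Dppa5a point of the bottom panel is a description, whatever its fill and bar.

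Across the 8 RNA-seq libraries the log2(FPKM + 1) values of Ooep and Tle6 ran closest together among the members, with a Pearson correlation of 0.95. Dppa5a correlated with Tle6 at 0.90, with Ooep at 0.87 and with Khdc3 at 0.79, and Khdc3 correlated with Ooep at 0.54 and with Tle6 at 0.53. These are descriptions over 8 libraries in 4 groups, and each of the 4 genes was lowest in MEF. Among 8338 genes that reached a mean of 10 FPKM in at least 1 group, those most like Dppa5a were the orphan receptor gene Gpr19 (0.996), the GABA-B receptor subunit Gabbr1 (0.994) and the germ cell gene Stra8 (0.993). Stra8 had 6.95 and 11.8 FPKM in Dppa5a_KD, 67.8 and 67.5 in KD_control, 50.3 and 33.2 in mESC, and 0 in MEF. The gene most like Khdc3 was Tuba3b (0.995), the gene most like Ooep was Gtf3c5 (0.998), and the gene most like Tle6 was Crtac1 (0.997). Neither the 5 genes most like Dppa5a nor the 3 most like each of Khdc3, Ooep and Tle6 included another member.

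In RIP, the messages of Dppa5a and Ooep were lower in HU_Flag_RIP than in IgG_RIP, and in Flag_RIP they lay below IgG_RIP without passing the test. IgG_RIP came from untreated cells, so antibody and HU cannot be told apart in HU_Flag_RIP against IgG_RIP. The totals were 9641507 and 7378729 counts in HU_Flag_RIP, 13033886 and 9469168 in Flag_RIP, and 3472020 and 3703236 in IgG_RIP, of which the ribosomal RNA precursor Rn45s took 66.9% to 69.4%, 72.6% to 73.2% and 39.3% to 47.9%. Dppa5a reads may come from the endogenous gene and from the 3Flag-Dppa5a transgene, and all 6 libraries come from overexpressing cells. Dppa5a had 857 and 697 counts in HU_Flag_RIP, 1744 and 1282 in Flag_RIP, and 1163 and 1491 in IgG_RIP. Scaled to effective library size (CPM) these were 114 and 114 in HU_Flag_RIP, 169 and 160 in Flag_RIP, and 231 and 252 in IgG_RIP. The replicates of each group lay within 1.09-fold of each other.

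The Dppa5a log2 fold change was -1.08 in HU_Flag_RIP against IgG_RIP (SE 0.24, edgeR adjusted p = 0.017). In Flag_RIP against IgG_RIP it was -0.55, with a 95% interval of -1.04 to -0.06 (edgeR adjusted p = 0.25), and in HU_Flag_RIP against Flag_RIP it was -0.53, with an interval of -1.02 to -0.04 (adjusted p = 1). Ooep had 69 and 65 counts in HU_Flag_RIP, 144 and 80 in Flag_RIP, and 117 and 179 in IgG_RIP, or 9.16 and 10.7, 13.98 and 9.99, and 23.3 and 30.2 CPM. The Flag groups overlapped each other. The Ooep log2 fold change was -1.43 in HU_Flag_RIP against IgG_RIP (SE 0.37, edgeR adjusted p = 0.040), -1.16 in Flag_RIP against IgG_RIP (SE 0.36, adjusted p = 0.11) and -0.28 in HU_Flag_RIP against Flag_RIP (interval -1.05 to 0.49). The Flag comparisons share the IgG libraries.

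Of 10473 genes tested by edgeR, 2.86% were called in HU_Flag_RIP against IgG_RIP (1.44% higher, 1.42% lower), 2.32% in Flag_RIP against IgG_RIP (1.16% higher, 1.16% lower) and 0.611% in HU_Flag_RIP against Flag_RIP (0.143% higher, 0.468% lower). Of the 3 members tested, 2 were lower in the first of these comparisons, and DESeq2 also called 2. In Flag_RIP against IgG_RIP 0 of 3 were called by edgeR and 0 by DESeq2, with 2 at an unadjusted p under 0.05, and in HU_Flag_RIP against Flag_RIP 0 and 0, with 1 such gene. Both HU_Flag_RIP calls ended when any 1 of the 4 libraries was left out, with adjusted p-values of 0.057 to 0.18 for Dppa5a and 0.081 to 0.28 for Ooep. With library size alone in place of TMM scaling, the median of all genes moved from 0.02 to -0.87 in Flag_RIP against IgG_RIP, and Dppa5a (-1.45, edgeR adjusted p = 9.5e-04) and Ooep (-2.07, adjusted p = 0.0011) were then called. The share of Rn45s moved with the antibody. Without the 10 most abundant genes, Rn45s among them, Dppa5a was at -1.08 (edgeR adjusted p = 0.0054) and Ooep at -1.43 (0.045) in HU_Flag_RIP against IgG_RIP, and at -0.56 (0.16) and -1.16 (0.11) in Flag_RIP against IgG_RIP. Summed over 8 genes, two-cell-like markers, which mark a small fraction of stem cell cultures, stood at 36.9 and 95.3 CPM in HU_Flag_RIP, 71.1 and 96.4 in Flag_RIP, and 8.15 and 9.29 in IgG_RIP. Of 5 such markers tested, 3 were higher and 0 lower in each Flag group against IgG_RIP, and their part in the Dppa5a and Ooep values was not tested.

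**Figure D5:**
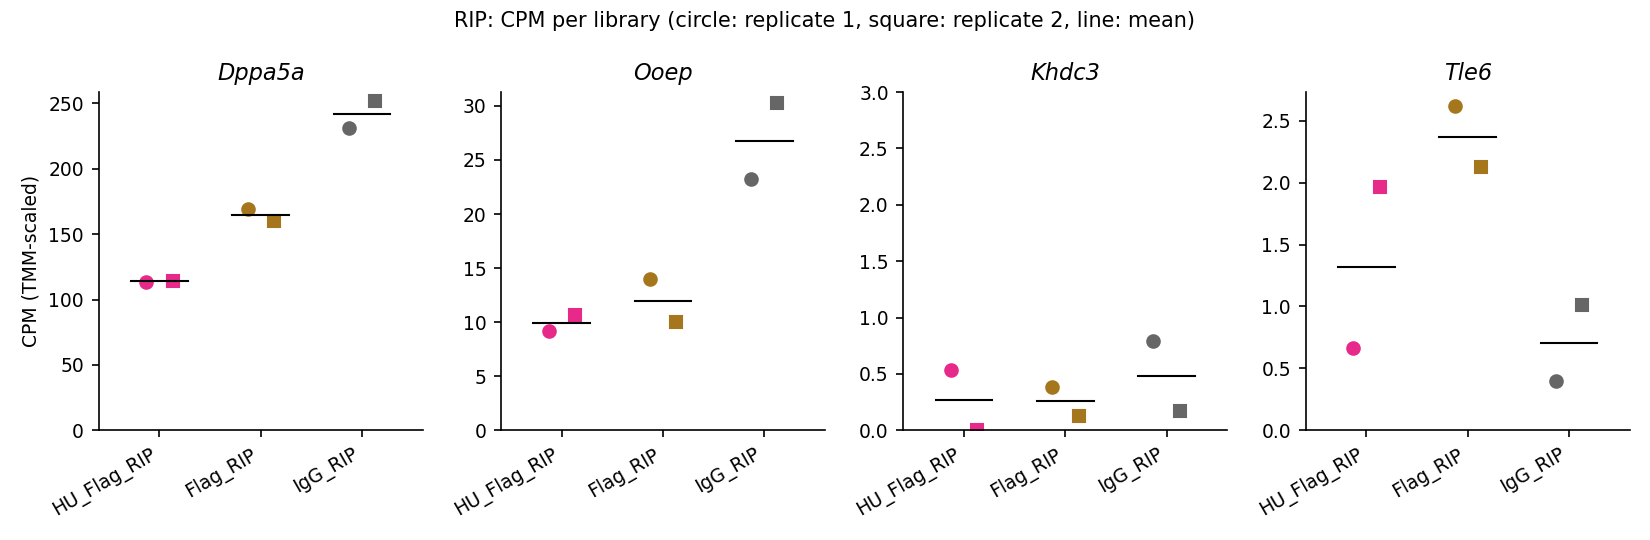
TMM-scaled CPM per RIP library for 4 members, with a line at each group mean. Dppa5a is at 114 in both HU_Flag_RIP libraries, 160 to 169 in Flag_RIP and 231 to 252 in IgG_RIP, and Ooep is highest in IgG_RIP.

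Tle6 did not pass the test in RIP. It had 5 and 12 counts in HU_Flag_RIP, 27 and 17 in Flag_RIP, and 2 and 6 in IgG_RIP, or 0.664 and 1.97, 2.62 and 2.12, and 0.398 and 1.01 CPM. The libraries of HU_Flag_RIP and IgG_RIP overlapped. Its log2 fold change was 1.71 in Flag_RIP against IgG_RIP, with an interval of -0.53 to 3.94 (edgeR adjusted p = 0.49), and 0.84 in HU_Flag_RIP against IgG_RIP (adjusted p = 0.77). The second of these turned to -0.065 with library size alone and to -0.11 without HU_Flag_RIP replicate 2. Khdc3 had 4 and 0 counts in HU_Flag_RIP, 4 and 1 in Flag_RIP, and 4 and 1 in IgG_RIP, and was not tested. Nlrp5, Padi6 and Khdc1a had 0 counts in all 6 libraries, which allows up to 0.230 to 0.864 CPM of the library total without TMM scaling (3 counts, counting error only). Nlrp5-ps was counted in every one of them, from 7 counts in IgG_RIP replicate 2 to 43 in HU_Flag_RIP replicate 2. Of 33 other KH-domain protein messages tested, 0 were called by edgeR and 0 by DESeq2 in each RIP comparison, with 7, 7 and 1 at an unadjusted p under 0.05 in HU_Flag_RIP against IgG_RIP, Flag_RIP against IgG_RIP and HU_Flag_RIP against Flag_RIP.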

How the data were processed

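RNA-seq was measured in Dppa5a_KD, KD_control, mESC and MEF and RIP in HU_Flag_RIP, Flag_RIP and IgG_RIP, with 2 libraries each. Per the labels' protocols, Trizol was used for extraction and the NEBNext Ultra kit for the libraries. The sources used here do not state strandedness, so a gene and an overlapping or antisense partner may share reads. The authors deposited FPKM per gene with confidence bounds, per the file headers, and raw read counts per gene symbol for RIP. The submitters' processing notes give the build mm10 and the tools HTSeq 0.6.1, Cuffdiff 2.1.1, Cufflinks 2.1.1, TopHat2 2.0.8 and CASAVA 2.19, without their roles.

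FPKM of a symbol were summed over its loci. Left out were 1 gene marked as failed and 27 count rows whose symbols read as dates (0.0206% to 0.0489% of counts). An effective fragment number was derived from each value and its upper bound, taking the bound as 2 Poisson errors; it was 18332625 to 25337449.5 per library. The FPKM test was limma-trend (limma 3.58.1) on log2(FPKM + 1), fitted on the 4 libraries compared, with genes kept where either group averaged 1 FPKM or more. The count test was edgeR 4.0.16's quasi-likelihood test in R 4.3.3 (TMM, filterByExpr, 1 fit of the 6 RIP libraries), with DESeq2 1.42.0 as an alternative. Benjamini-Hochberg adjustment ran over all genes tested, and calls are adjusted p-values under 0.05. Simulated data with 200 genes of known change were used to test both fits. CPM are edgeR's, over the library total multiplied by its TMM factor.

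The members, lists and motifs were chosen with earlier results of these data known. Named were the members, up to 4 called genes with the smallest p per list (2 where none was called), the genes of most similar pattern, and the neighbours within 200 kb, not all of them in the text. Alternatives were other scalings, filters and pseudocounts, other sets of libraries, DESeq2, a replicate block and leaving out each library.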

Additional observations from a re-analysis of the deposited data

How the results depend on the processing

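Of the members' tests, 142 kept their direction and their side of the threshold under the alternatives that kept every library, 1 lost its call, 2 gained one and 1 reversed: Tle6 in HU_Flag_RIP against IgG_RIP, which was -0.065 with library size alone. With a library left out, 67 kept both, 14 lost a call, 2 gained one and 1 reversed, again Tle6 in HU_Flag_RIP against IgG_RIP, which ranged from -0.11 to 1.64. Each group had 2 libraries, and the causes of these changes were not tested. The tallies include Dppa5a in KD_control against mESC, whose value is a description. Among the other named genes, 19 tests lost their call under such alternatives and 32 with a library left out, of which Nlrp4f, Dppa2, Padi3, Fxr2, Ddx43 and Rsl24d1 lost the knockdown call without either KD_control library.

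The number of genes called in the knockdown, 4618, was 3023 with a filter at 5 FPKM, 2884 with FPKM rescaled to a common sum and 2992 with all 8 libraries in the fit. Median-ratio scaling gave 2101 higher and 2353 lower in place of 1678 and 2940. Rescaling to a common sum moved the knockdown median of all genes to 0.02. For Flag_RIP against IgG_RIP the count, 243, was 2272 with library size alone (64 higher, 2208 lower), 433 with no filter and 508 with the replicate block. For HU_Flag_RIP against IgG_RIP the count, 300, was 2709 with library size alone (92 higher, 2617 lower), 532 with no filter and 621 with the replicate block. For HU_Flag_RIP against Flag_RIP the count, 64, was 41 with only the 4 libraries compared. With a library left out, counts ranged from 2835 to 7056 in mESC against MEF, 2415 to 9436 in the knockdown, 1865 to 10895 in KD_control against mESC, 30 to 248 in Flag_RIP against IgG_RIP, 25 to 252 in HU_Flag_RIP against IgG_RIP and 45 to 71 in HU_Flag_RIP against Flag_RIP. Same-numbered replicates deviated together with correlations of -0.55 to 0.36, and no label ties them, so the replicate block is given as a description only. It ended the knockdown call of Rsl24d1 and, in KD_control against mESC, that of C920006O11Rik.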
